A study of Mus musculus with 5 samples.

Results

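The respiratory chain genes described here are those whose symbols begin with Nduf, Uqcr, Sdh followed by a to d, Cox followed by a digit from 4 to 8, or Atp5. They were chosen by name from probe sets (groups of short array probes for 1 transcript) annotated to 1 gene, and each gene is represented by its brightest probe set by mean of the 5 arrays. This gave 84 genes of 12393 named genes, measured by 156 of 22626 probe sets. Another 7 probe sets with such names list several genes and were left out. By complex, 33 genes encode subunits of complex I, 4 of complex II, 8 of complex III and 17 of complex V (ATP synthase). Complex IV (cytochrome c oxidase) has 17, with Ndufa4, named for complex I and now counted to complex IV, and the supercomplex factor Cox7a2l placed there. A further 5 genes, beginning with Ndufaf, encode assembly factors of complex I.

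Total RNA was pooled from several whole C57BL/6 mice aged 1 day and, separately, from the colons of several C57BL/6 mice aged 8 weeks. Colon RNA was 0%, 25%, 50%, 75% or 100% of a mix, and whole mouse RNA the rest. From each mix, 10 ng was amplified in 2 rounds by T7 transcription and hybridised to an Affymetrix MOE430 mouse array, with 1 array per mix and no replicate. Organ and age differed together between the pools and cannot be told apart, and no value here measures the spread between mice. All values are the authors' log2 signals, on which 1 unit is a doubling, and the values of the 5 arrays are given in order of rising colon share. A whole newborn holds heart, skeletal muscle and brown fat as well as gut, so it stands for a blend of tissues and not for an organ.

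The respiratory chain passes electrons from NADH (complex I) and succinate (complex II) through complex III to oxygen (complex IV), and ATP synthase uses the proton gradient so built. Most subunits are encoded in the nucleus and made in nearly every cell. A few subunits of complex IV come in tissue forms: in mouse heart and skeletal muscle Cox6a2, Cox7a1 and Cox8b take the places that Cox6a1, Cox7a2 and Cox8a hold elsewhere, and brown fat also makes Cox7a1 and Cox8b.

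A straight line through the 5 log2 signals against the colon share was fitted to every probe set with limma. Its slope is a fitted log2 difference between colon and whole mouse RNA, positive where colon is higher. RNA mixes in proportion on the linear scale and not in log2, so the slope can differ from the difference between the undiluted arrays. For Cox6a2 these were −3.76 and −4.11. A gene "rose" or "fell" where its Benjamini-Hochberg adjusted p over all probe sets was under 0.05. Of the 84 genes 5 passed (5.95%), while 24.3% of all named genes and 29.0% of those with a mean log2 signal of at least 10 did so (15.4% rose and 13.5% fell). The heart and muscle isoforms Cox6a2, Cox8b and Cox7a1 were the 3 that fell (3.57% of the genes, against 14.5% of all named genes). The 2 that rose were Cox5a and Ndufa6 (2.38%, against 9.80% of all named genes). Of the 81 genes other than the heart and muscle isoforms, 73 had slopes between −0.5 and 0.5, and the whole range ran from −0.70 to 0.65. The median slope was −0.0046 for the 84 genes and −0.0091 for all named genes, with a median SE of 0.12 for the 84 genes and 0.16 for all.

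A mean log2 signal of at least 10 was reached by 68 of the 84 genes and by 1454 of the 12393 named genes. Exact ties between arrays, which the authors' median polish leaves, occurred in 34 of the 84 brightest probe sets (40.5%), and for Cox6b1 all 5 arrays held the same value (13.07). At an unadjusted limma p under 0.05 the count of genes was 23 (27.4%), while 41.3% of all named genes were past that threshold.

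**Figure D1:**
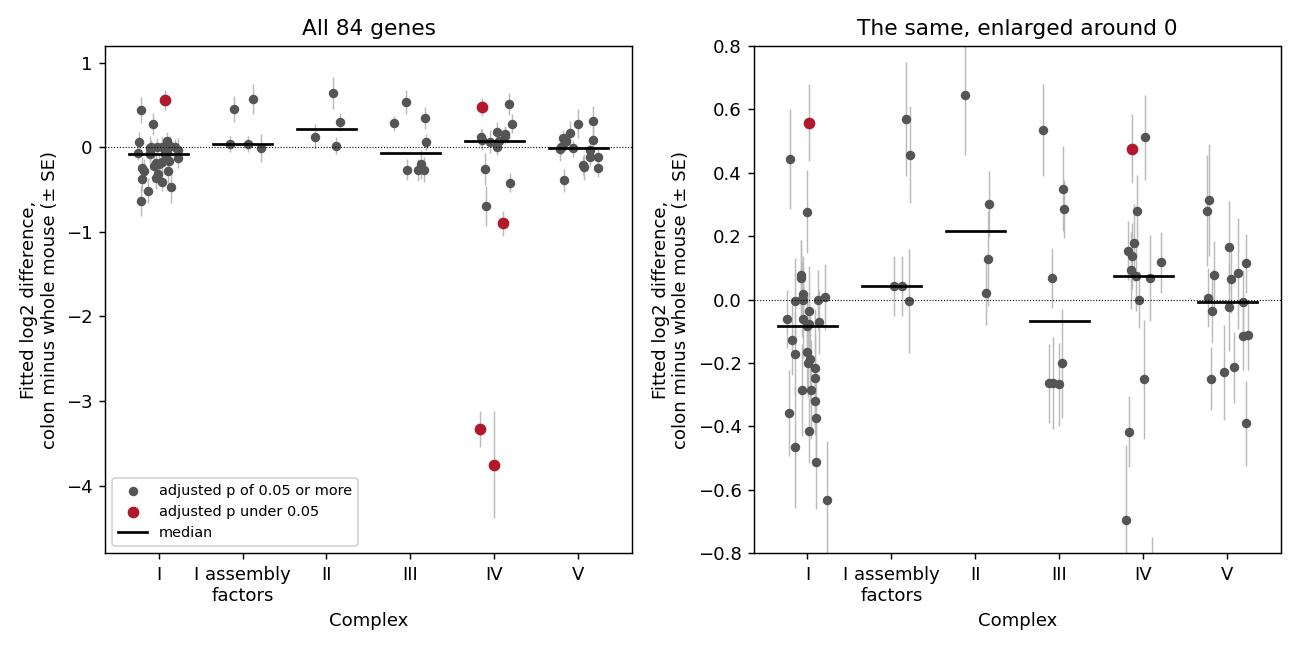
Fitted log2 difference between colon and whole mouse (y axis, colon minus whole mouse, grey bars ± SE) of the 84 genes by complex (x axis), in full on the left and enlarged around 0 on the right. Red points passed an adjusted p of 0.05, grey points did not and black lines are medians. The 3 heart and muscle isoforms of complex IV lie at −0.90 and below, and the right panel leaves them out.

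Cox6a2, the form of subunit VIa in heart and muscle, had log2 signals of 11.52, 10.93, 10.29, 9.76 and 7.40. Each array lay below the one before, and the step onto the undiluted colon array was the largest. The signal was 17.3-fold lower in colon than in whole mouse, and the fitted difference was −3.76 (SE 0.63, limma adjusted p = 0.0217). That fold rests on 1 array at each end. The colon value lay above that array's median of 6.83 but was not tested against background. Its partner Cox6a1, made in most tissues, had 13.54, 13.62, 13.67, 13.70 and 13.70 (slope 0.15, SE 0.093, limma adjusted p = 0.326).

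Cox8b, the muscle form of subunit VIII, had 9.34, 8.29, 7.55, 7.03 and 5.80. It also fell in strict order and ended near the lower quartile of all probe sets, which lay between 5.37 and 5.49 on the 5 arrays. No detection call was used here, so whether the colon value lies above background was not tested and no fold is given. The fitted difference was −3.34 (SE 0.21, limma adjusted p = 0.00393). Cox8a, its partner, had 12.44, 12.40, 12.45, 12.65 and 12.67 (slope 0.28, SE 0.11, limma adjusted p = 0.16).

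Cox7a1, the muscle form of subunit VIIa, had 9.35, 8.95, 8.87, 8.76 and 8.33. It fell in strict order as well, but by less, and its signal in colon stayed well above the lower quartile of all probe sets. The signal was 2.04-fold lower in colon than in whole mouse, with a fitted difference of −0.90 (SE 0.15, limma adjusted p = 0.0206). Cox7a2, its partner, had 13.20, 13.26, 13.38, 13.28 and 13.28 (slope 0.075, SE 0.11, limma adjusted p = 0.712). Each of the 3 muscle isoforms has 1 probe set on the array, so no other probe set could be set beside it. In pooled tissue RNA, fewer cells of a type and less RNA per cell cannot be told apart.

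**Figure D2:**
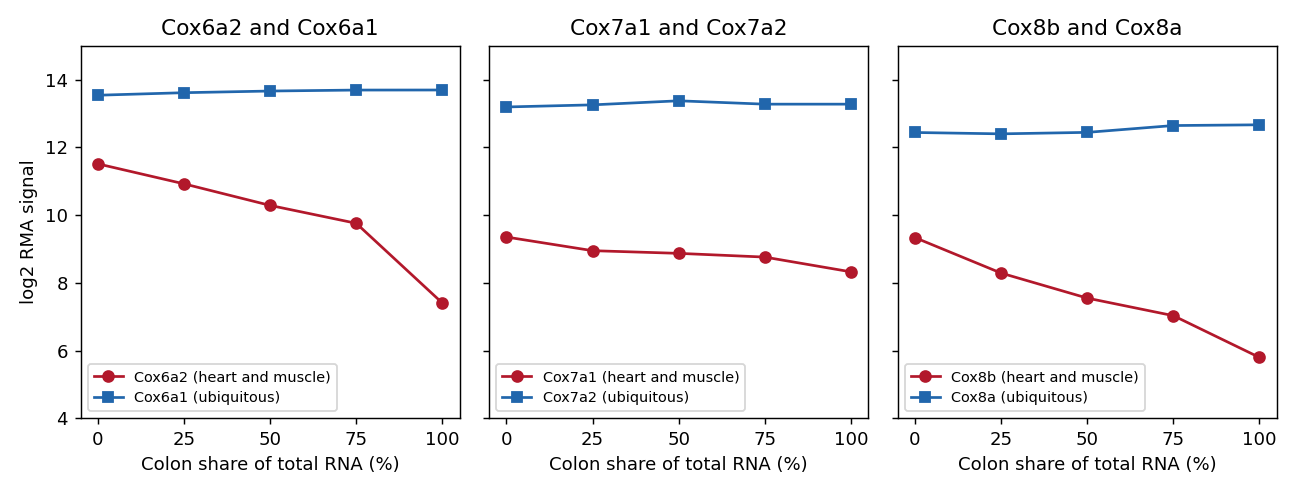
Log2 RMA signal (y axis) against the colon share of total RNA in percent (x axis) for the heart and muscle isoform (red circles) and its ubiquitous partner (blue squares), 1 array per point. Cox6a2, Cox7a1 and Cox8b decline in strict order, to 7.40, 8.33 and 5.80 in colon, while their partners stay within a narrow band. The heights of different probe sets cannot be compared.

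The change of each tissue isoform against its partner was tested directly, on the difference of their log2 signals, with an exact 2-sided permutation test over the 120 orders of the 5 arrays. Of 8 pairs considered, 6 were measured, Cox7b2 with Cox7b and Ndufa4l2 with Ndufa4 not being analysed here. All 3 heart and muscle pairs reached the smallest p that 5 arrays allow (exact permutation p = 0.0167, 0.0333 adjusted over the 6 pairs). The arrays are graded mixes of the same 2 pools, so a pair that differs between the pools is put in order by the dilution itself. That p therefore speaks to array noise alone, and the pairs were chosen with earlier results of these data known. Relative to its partner, the fitted change over the full range of colon share was −3.91 log2 (SE 0.78) for Cox6a2, −3.62 (SE 0.20) for Cox8b and −0.97 (SE 0.17) for Cox7a1. Without the undiluted colon array the change of Cox6a2 against Cox6a1 was −2.57, the smallest of the 5 values with an array left out.

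None of the other tissue isoforms of complex IV passed. Cox6b2, best known from testis, had 6.28, 5.87, 5.47, 5.53 and 5.58 (slope −0.70, SE 0.24, limma adjusted p = 0.107). Cox4i2, known from lung and the response to low oxygen, had 6.83, 6.51, 6.34, 6.51 and 6.51 (slope −0.25, SE 0.19, limma adjusted p = 0.427). Cox8c, another form made in testis, lay between 7.77 and 8.00 (slope 0.069, SE 0.14, limma adjusted p = 0.785). For each of these 3 genes the whole mouse array was the highest or nearly so, and the lowest value came from a mixture and not from the undiluted colon. Against their partners Cox6b1, Cox4i1 and Cox8a they changed by −0.70 (SE 0.28, exact permutation p = 0.1), −0.39 (SE 0.22, exact permutation p = 0.217) and −0.21 (SE 0.095, exact permutation p = 0.117). Adjusted over the 6 pairs these were 0.14, 0.217 and 0.14. Without the whole mouse array the changes were −0.33, −0.11 and −0.11. None of 6 genes listed for testis passed in either direction, while 24.3% of all named genes did. Prm1, a protamine that packs sperm DNA and the brightest of them, lay between 7.38 and 7.79. Neither pool held adult testis, so this list has no bearing on the testis forms.

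The dilution gives a further view of the muscle isoforms, since a mixture's intensity can be set beside the weighted mean of the undiluted arrays on the linear scale. Cox6a2 lay 0.20 and 0.31 log2 below that line at 25% and 50% colon (deviations of −0.20 and −0.31) and 0.013 above it at 75%. Cox7a1 deviated by −0.21, −0.06 and 0.10. Cox8b lay below the line in all 3 mixtures, with deviations of −0.67, −0.91 and −0.64, measured from a line whose colon end is the low value described above. These are descriptions of 1 array each.

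**Figure D3:**
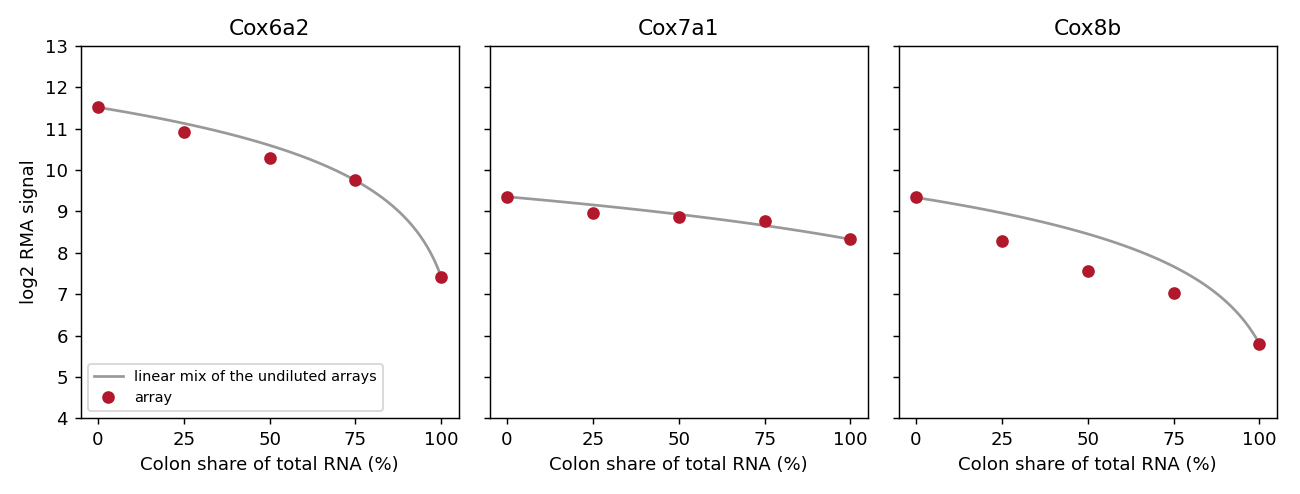
Log2 RMA signal (y axis) of the 3 heart and muscle isoforms against the colon share of total RNA in percent (x axis). Red points are arrays and the grey line is the linear-scale mix of the 2 undiluted arrays, so the end points lie on it by construction. The Cox8b mixtures lie 0.64 to 0.91 log2 below the line, and those of Cox7a1 within 0.21 of it.

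Promoter windows from RefSeq, from 250 bases before to 50 bases after the annotated start, were matched for 70 of the 84 genes (75 windows). Cox6a2 was among the 14 genes without one. Of the 3 heart and muscle pairs, both members of Cox8 and Cox7a had a window, and these are shown because the muscle form fell and its partner did not pass. Each line gives 100 bases before and 25 bases from the annotated start, on the gene's strand, from build GRCm38.p6. Capitals mark 3 motifs. The E-box, bound by muscle bHLH factors among others, was searched as CAGCTG, which reads the same on both strands. The letters TATAAA, which form a TATA box where they lie upstream of a start, were searched on the strand of the gene. The site of ETS factors was searched on both strands as CCGGAAG and appears reversed in Cox8a. The lines lie at chr7:140900422-140900546 (minus strand) for Cox8b, chr19:7217592-7217716 (minus) for Cox8a, chr7:30184071-30184195 (plus) for Cox7a1 and chr9:79759829-79759953 (minus) for Cox7a2.
Cox8b: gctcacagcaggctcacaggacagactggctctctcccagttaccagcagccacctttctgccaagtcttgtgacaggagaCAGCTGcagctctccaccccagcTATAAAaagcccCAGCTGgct
Cox8a: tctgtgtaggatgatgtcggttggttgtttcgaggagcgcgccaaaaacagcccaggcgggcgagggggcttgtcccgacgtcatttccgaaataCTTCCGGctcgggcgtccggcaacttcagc
Cox7a1: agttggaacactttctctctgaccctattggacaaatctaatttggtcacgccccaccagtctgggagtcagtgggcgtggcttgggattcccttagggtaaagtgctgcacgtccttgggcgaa
Cox7a2: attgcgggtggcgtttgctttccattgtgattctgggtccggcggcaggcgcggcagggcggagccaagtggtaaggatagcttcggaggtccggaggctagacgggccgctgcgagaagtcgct

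The whole window of Cox8b held 2 matches to the E-box letters, beginning 19 bases before the annotated start and at base 17 counted from it. It also held TATAAA once, at base 5 from the start and so not where a TATA box lies relative to that start, and no ETS letters. That of Cox8a held 2 matches to the ETS letters and neither of the others. The windows of Cox7a1 and Cox7a2 held none of these letters. Of the 72 windows of respiratory chain genes other than tissue isoforms, 25.0% held the ETS site, against 11.6% of 21262 windows of protein-coding genes. AAGATGG, a site of the factor YY1, was searched on both strands and lay in 13.9% of the 72 windows and 6.24% of the protein-coding ones. The E-box was in 6.94% of the 72 windows and in 15.6% of the protein-coding ones, and TATAAA in 2.78% and 8.26%. The motifs were chosen with these sequences in view, no test was made, and a match of letters is not a bound site.

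Cox5a, a subunit that every cell's complex IV carries, was 1 of the 2 genes that rose. It had 13.05, 13.17, 13.35, 13.50 and 13.48, so the 2 highest arrays were those with the most colon (slope 0.48, SE 0.11, limma adjusted p = 0.0431). Its other 2 probe sets had slopes of 0.40 (limma adjusted p = 0.321) and 0.13 (limma adjusted p = 0.777), and the mean of the 3 probe sets did not pass (adjusted p = 0.231). Among the 10 ubiquitous members of complex IV, 8 had positive slopes, 1 negative and 1 exactly 0, with a median of 0.15. Cox5b, the brightest of all 84 genes, lay between 13.98 and 14.10 (slope 0.12, SE 0.096, limma adjusted p = 0.468).

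The largest positive slope in complex IV was that of Cox7c (0.51, SE 0.13, limma adjusted p = 0.0568), but its brightest probe set was dim, at 5.33, 5.65, 5.56, 5.73 and 5.92. Median centring gave an adjusted p of 0.0315 for it. Ndufa4 ran the other way, with 11.61, 11.59, 11.32, 11.32 and 11.22 (slope −0.42, SE 0.11, limma adjusted p = 0.0612). It fell when dim probe sets were left out (adjusted p = 0.0417) and with means over probe sets (adjusted p = 0.0469). Ndufa4 has 1 probe set, so its slope was the same in both, and only what was tested beside it changed. Cox7a2l, which helps join complexes III and IV, lay between 12.30 and 12.53 (slope 0.092, SE 0.12, limma adjusted p = 0.672).

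Complex I is the largest of the complexes and takes electrons from NADH. Of its 33 measured subunits 1 rose and none fell. Ndufa6, an accessory subunit that rose, had 10.59, 10.74, 10.98, 11.12 and 11.10 (slope 0.56, SE 0.12, limma adjusted p = 0.0372). The 2 arrays with the most colon were again the highest. Slopes were negative for 25 of the 33 and positive for 8, with a median of −0.082, whereas 50.9% of all named genes had negative slopes. That split depended on the scale of the arrays: after each array was centred on its median, 16 were negative and 17 positive, with a median of 0.0014.

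The core subunits, which carry the flavin and the iron-sulfur clusters, did not pass in their brightest probe sets. The most negative slope was that of Ndufs7, which holds the last iron-sulfur cluster, with 12.48, 12.12, 11.87, 12.05 and 11.73 (slope −0.63, SE 0.18, limma adjusted p = 0.0735). Its other probe set had 12.34, 11.98, 11.83, 11.80 and 11.61 and fell (slope −0.65, SE 0.13, limma adjusted p = 0.0313), as did the mean of both (adjusted p = 0.0332). In both probe sets the whole mouse array was the highest and the colon array the lowest. Ndufv1, which binds NADH, lay between 12.17 and 12.33 (slope 0.019, SE 0.12), and Ndufs1, with several of the clusters, between 9.90 and 10.07 (slope 0.00047, SE 0.12).

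Among the 27 accessory subunits 21 slopes were negative, with a median of −0.13. Ndufa1, the brightest gene of complex I, had 12.83, 12.99, 13.17, 13.14 and 13.10 (slope 0.28, SE 0.13, limma adjusted p = 0.216). Ndufs5 had the most negative accessory slope (−0.51, SE 0.15, limma adjusted p = 0.0732) and Ndufa10 came closest to passing among them (−0.41, SE 0.10, limma adjusted p = 0.0513). Ndufa10 fell when dim probe sets were left out (adjusted p = 0.0347, with the same slope) and on linear intensities (adjusted p = 0.0457). Ndufs8, of the core, had slopes from −0.28 in its brightest probe set to 0.025 at the highest of 6.

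**Figure D4:**
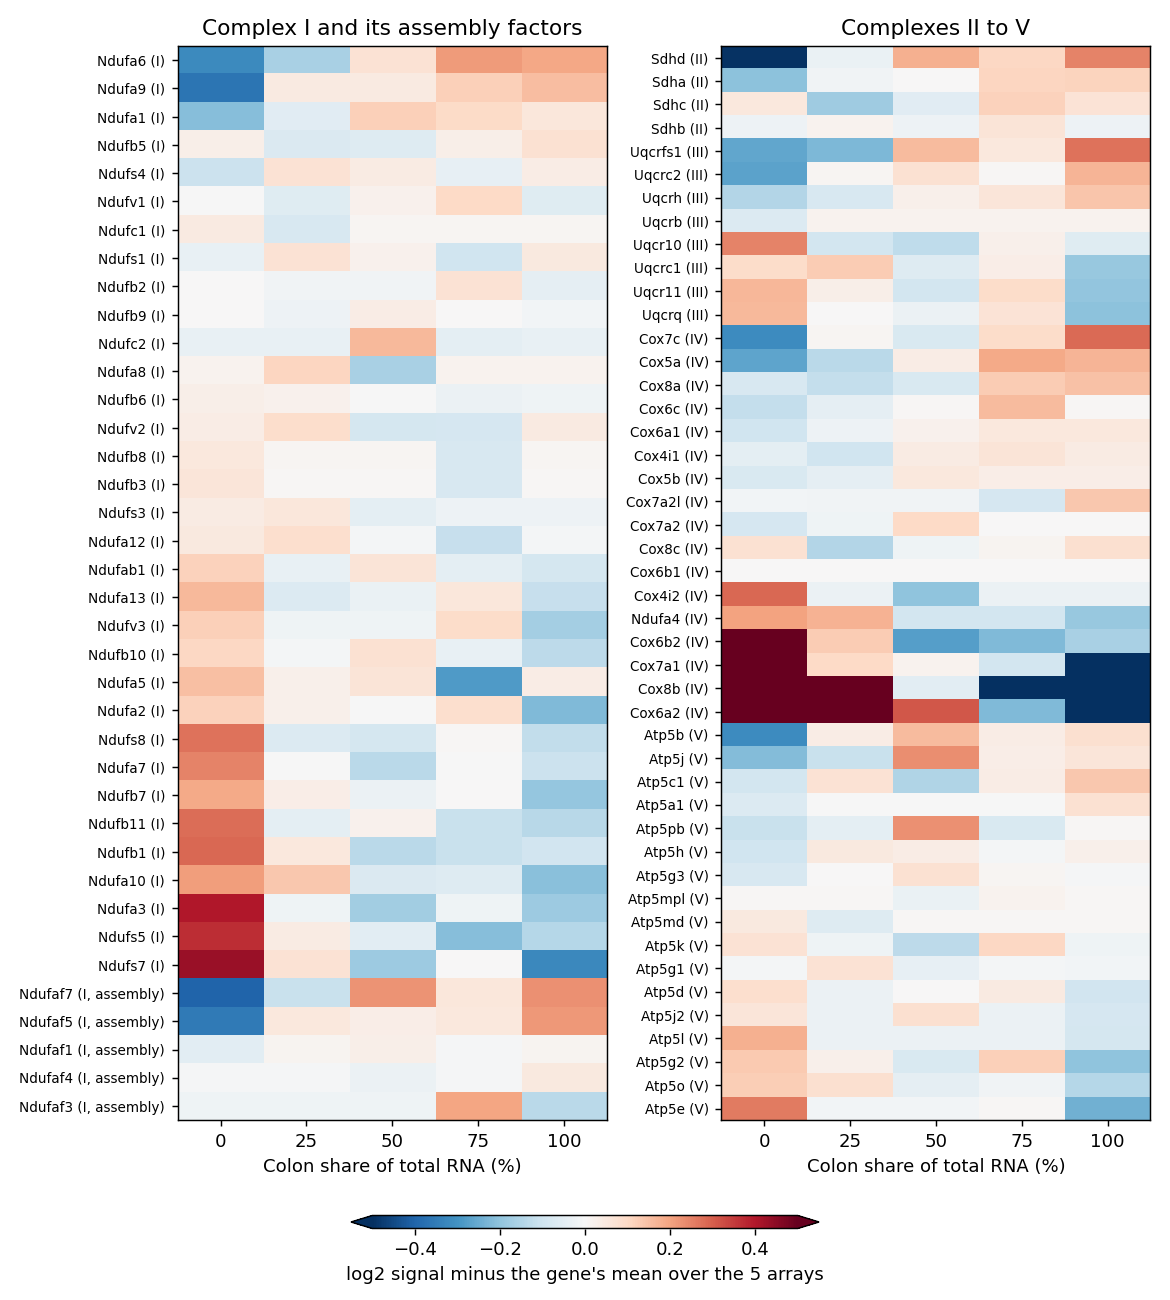
Log2 signal of each of the 84 genes minus the gene's own mean over the 5 arrays (colour, from −0.5 to 0.5, with values beyond shown in the end colours), by colon share of total RNA in percent (x axis). Rows are genes with their complex in parentheses, ordered within a complex by slope from positive to negative. Cox6a2, Cox8b and Cox7a1 run from the red to the blue end of the scale, and most other rows are pale throughout.

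The 5 assembly factors of complex I that carry the Nduf prefix did not pass. Ndufaf7 had the most positive slope among them (0.57, SE 0.18, limma adjusted p = 0.089), with 7.43, 7.72, 8.06, 7.89 and 8.06. Ndufaf3, the brightest, lay between 8.86 and 9.19 (slope −0.0034, SE 0.16).

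Complex II, which is also the succinate dehydrogenase of the citric acid cycle, had 4 positive slopes, and none passed. The membrane anchor Sdhd had 11.26, 11.72, 11.93, 11.86 and 12.00 (slope 0.65, SE 0.19, limma adjusted p = 0.0748), the largest positive slope of the 84 genes. Without the whole mouse array its slope was 0.31, below that of Uqcrfs1 in complex III (0.55). After median centring the adjusted p of Sdhd was 0.0392. The other probe set of Sdhd ran from 7.22 to 7.55 (slope 0.26). The catalytic subunit Sdha had 11.53, 11.71, 11.73, 11.84 and 11.84 (slope 0.30, SE 0.10, limma adjusted p = 0.111), while Sdhb, which holds iron-sulfur clusters, lay between 12.00 and 12.09 (slope 0.020, SE 0.10).

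In complex III 4 slopes were positive and 4 negative, and none passed. Uqcrfs1, the Rieske iron-sulfur protein, had the most positive slope, with 11.87, 11.90, 12.29, 12.18 and 12.40 (slope 0.54, SE 0.15, limma adjusted p = 0.0626). Its adjusted p was 0.0425 after median centring and 0.0437 when dim probe sets were left out, where its slope was the same. Of the core proteins, Uqcrc2 had a slope of 0.35 (SE 0.13, limma adjusted p = 0.141) and Uqcrc1 of −0.26 (SE 0.12, limma adjusted p = 0.218). Uqcrb, the brightest, stayed between 13.70 and 13.79, and Uqcrq, with 12.15, 11.99, 11.96, 12.06 and 11.79, had the most negative slope (−0.27, SE 0.13, limma adjusted p = 0.237).

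In ATP synthase all 17 measured slopes lay between −0.39 and 0.31, 8 positive and 9 negative, and none passed. In the catalytic F1 head, Atp5b (the beta subunit) had 12.50, 12.85, 12.97, 12.85 and 12.89 (slope 0.31, SE 0.18, limma adjusted p = 0.292). That slope rested on the whole mouse array, without which it was 0.00072. Atp5e (epsilon) had 11.06, 10.79, 10.79, 10.81 and 10.56 (slope −0.39, SE 0.13, limma adjusted p = 0.107). Atp5g1, Atp5g2 and Atp5g3 encode the same mature subunit of the rotating c ring. Of these, Atp5g3 was the brightest gene of the complex, at 13.34 to 13.50 (slope 0.063, SE 0.11), Atp5g1 had a slope of −0.036 (SE 0.10) and Atp5g2 of −0.23 (SE 0.15). The 4 genes of the peripheral stalk had slopes from −0.25 (Atp5o) to 0.28 (Atp5j).

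Several probe sets of a gene did not always run the same way. Of 45 genes with more than 1 probe set, 14 had slopes of both signs. Uqcr10, an accessory subunit of complex III, had −0.20 in its brightest probe set and 0.64 (SE 0.16, limma adjusted p = 0.052) in its dimmest of 3. Ndufs4, an accessory subunit of complex I, had 0.069 in its brightest and 0.83 (SE 0.39, limma adjusted p = 0.217) in its dimmest. Over all 156 probe sets, 2 rose and 4 fell, the fourth being that of Ndufs7 above. Of all 22626 probe sets 8.63% rose and 10.9% fell (19.5% in all), or 1953 and 2456, and after median centring 3148 rose and 2325 fell.

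Leaving out an array left 4 arrays and cost most of the calls. Cox8b passed without each array in turn, with adjusted p from 0.026 to 0.0352. Cox6a2 passed without the 75% array (0.0404) or the colon array (0.0321) but not without the whole mouse (0.0781), 25% (0.0613) or 50% array (0.0619), and its slope without the colon array was −2.36. Cox7a1 passed without the 25% array (0.0406) and not without the whole mouse (0.105), 50% (0.0611), 75% (0.0507) or colon array (0.13). Cox5a (0.0841 to 0.146) and Ndufa6 (0.073 to 0.145) passed in none of the 5. Some slopes that did not pass were nearer 0 without the whole mouse array, at −0.40 for Ndufs7, −0.28 for Ndufs5, 0.34 for Ndufaf7, 0.20 for Sdha, 0.16 for Uqcrc2 and 0.13 for Ndufa1.

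Marker lists of skeletal muscle, heart and brown fat were set beside the muscle isoforms. Among 10 markers of skeletal muscle, 4 fell and none rose, with slopes from −7.36 to −4.24 and a summed log2 signal of 16.23, 16.00, 15.65, 14.93 and 9.46. Of 8 heart genes 7 fell and none rose (slopes from −5.62 to −2.39), with summed signals of 14.36, 13.94, 13.33, 12.56 and 9.54. Of 6 measured genes listed for brown fat 4 fell and none rose (slopes from −5.17 to 0.11), with 13.61, 13.22, 12.95, 12.26 and 11.02. All 3 sums were lowest in the undiluted colon. The shares that passed were 40%, 87.5% and 66.7%, against 24.3% of all named genes. Examples from the skeletal muscle list are the Z-disc genes Actn2 (−5.99) and Myot (−5.61) and the creatine kinase Ckm (−4.60). Those from the heart list are the myosin genes Myl2 (−5.62), Myh6 (−5.60) and Myl4 (−4.33). In the brown fat list they are the lipid droplet gene Cidea (−5.17) and the uncoupling protein Ucp1 (−5.17). Adiponectin (Adipoq, −1.77) and Fabp4 (−1.77), which also fell, are made by fat cells in general and not by brown fat alone. The 2 brown fat genes that did not pass were Dio2 and Elovl3 (slope −0.19, limma adjusted p = 0.577). The brightest of each list that did not pass were Acta1 (slope −6.26, SE 2.20, limma adjusted p = 0.115), Actc1 (slope −4.93, SE 1.41, limma adjusted p = 0.0709) and Dio2 (slope 0.11, SE 0.16, limma adjusted p = 0.713). Acta1 went from 13.95 in whole mouse to 6.63 in colon and Actc1 from 12.73 to 7.16, so not passing does not mean unchanged. Their part in the decline of Cox6a2, Cox8b and Cox7a1 was not tested, nor was whether the skeletal muscle and heart lists tell these tissues apart in a newborn.

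The slopes of all 3 isoforms were smaller in size than the median slope of the skeletal muscle genes (−6.18) and of the heart genes (−4.19). Those of Cox6a2 and Cox8b lay within the range of the heart list (−5.62 to −2.39). All 3 slopes lay within the range of the brown fat list (−5.17 to 0.11). Cox7a1 was closer to 0 than the median of the brown fat list (−1.77), which lies between the general fat cell genes Adipoq and Fabp4. The next 2 lists stood for colon. Of 9 colon epithelium genes 3 rose and none fell (33.3% in all, against 24.3% of all named genes), with slopes from 2.10 to 5.96. The 3 were the intestinal transcription factors Cdx1 (3.58) and Cdx2 (3.13) and the fatty acid transporter Slc5a8 (3.33). Lgals4, the brightest that did not pass, had a slope of 2.10 (SE 0.77, limma adjusted p = 0.129). Of 7 smooth muscle genes 2 rose and none fell (28.6% in all, slopes from −0.33 to 2.77), calponin (Cnn1, 2.26) and smooth muscle actin (Acta2, 0.74). Tagln, the brightest that did not pass, had a slope of 2.13 (SE 0.57, limma adjusted p = 0.0603). Desmin (Des), an intermediate filament protein that striated muscle makes too, had the one negative slope of that list (−0.33, limma adjusted p = 0.148). Among 5 pericyte genes Pdgfrb (−1.88) and Cspg4 (−0.92) fell (40% in all), and Rgs5, the brightest that did not pass, had a slope of 1.49 (limma adjusted p = 0.0627).

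Genes that supply or use the chain were described by lists of their own. Of 18 measured carriers, creatine kinases and electron carriers, 1 rose and 4 fell (27.8% in all, against 24.3% of all named genes), and their median slope was −0.00044. The 3 with the largest slopes were Ucp1, Ckm and Ckmt2, the sarcomeric mitochondrial creatine kinase, which had 10.39, 10.07, 9.47, 8.43 and 5.78 (slope −4.35, SE 0.82, limma adjusted p = 0.0275). The phosphate carrier Slc25a3, the brightest that did not pass, had a slope of 0.37 (limma adjusted p = 0.0796).

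The adenine nucleotide carriers, which exchange ADP for the ATP made by complex V, resemble complex IV in having tissue forms, and are named after their values were seen. Slc25a4, the heart and muscle form, had 13.30, 12.90, 12.53, 12.01 and 11.10 and fell (slope −2.12, SE 0.21, limma adjusted p = 0.00728). Slc25a5, a form of dividing and epithelial cells, had 12.77, 13.36, 13.60, 13.66 and 13.76 and rose (slope 0.90, SE 0.21, limma adjusted p = 0.0441). Both ran in strict order, in opposite directions. Ckmt1, the mitochondrial creatine kinase of epithelium and brain, had 10.05, 12.05, 12.36, 12.63 and 12.64 (slope 2.31, SE 0.68, limma adjusted p = 0.0757). Cytochrome c (Cycs, slope 0.24) and cytochrome c1 of complex III (Cyc1, slope 0.052), which the prefixes leave out, did not pass.

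**Figure D5:**
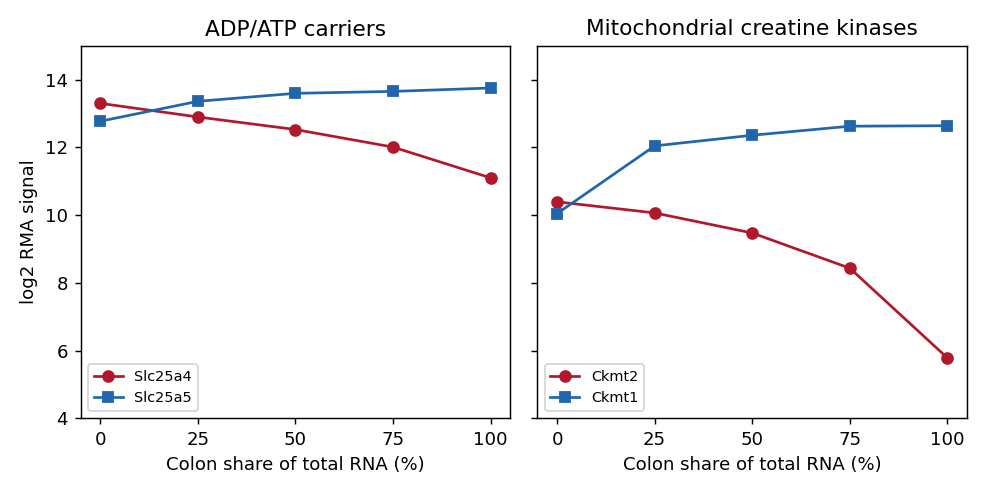
Log2 RMA signal (y axis) against the colon share of total RNA in percent (x axis) for the muscle forms (red circles, Slc25a4 and Ckmt2) and the other forms (blue squares, Slc25a5 and Ckmt1) of the ADP/ATP carrier and the mitochondrial creatine kinase, 1 array per point. Slc25a4 and Ckmt2 decline to 11.10 and 5.78 in colon, and Slc25a5 and Ckmt1 reach 13.76 and 12.64 there.

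Of 32 measured assembly factors of the chain, 3 rose and 1 fell (12.5% in all, against 24.3% of all named genes), with a median slope of 0.043 (5 of the 32 are the Ndufaf genes above). Surf1, needed to build complex IV, had 9.09, 9.69, 10.06, 10.27 and 10.42 and rose (slope 1.30, SE 0.19, limma adjusted p = 0.0153). Cox20 (0.90, SE 0.22, limma adjusted p = 0.0468) and Coa6 (0.47, SE 0.12, limma adjusted p = 0.0493), both also factors of complex IV, rose too. Uqcc2, a factor of complex III, fell (−0.55, SE 0.13, limma adjusted p = 0.0422). Coa3, the brightest that did not pass, had a slope of 0.39 (limma adjusted p = 0.12).

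In the citric acid cycle and its entry, 1 of 17 measured genes rose and 4 fell (29.4% in all, against 24.3% of all named genes), with a median slope of −0.11. Suclg2, the GTP-forming subunit of succinyl-CoA synthetase, rose with a slope of 2.60 (SE 0.49, limma adjusted p = 0.0279) and signals of 6.20, 7.93, 8.35, 8.57 and 9.13. Pyruvate carboxylase (Pcx) fell, with a slope of −1.21 (SE 0.21, limma adjusted p = 0.0228), as did the NADP-linked isocitrate dehydrogenase Idh2 (−1.05), Pdhb (−0.58) and Dlst (−0.53). Malate dehydrogenase (Mdh2), the brightest that did not pass, lay between 12.73 and 12.96.

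Among 19 measured regulators of mitochondrial and muscle genes 3 rose and 4 fell (36.8% in all, against 24.3% of all named genes), with a median slope of 0.055. Those with the largest slopes were the muscle transcription factors Myog (−3.37, limma adjusted p = 0.0153), Mef2c (−2.88, limma adjusted p = 0.00583) and Myod1 (−1.02, limma adjusted p = 0.00951), which fell along with Mef2a (−0.79, limma adjusted p = 0.0438). The 3 that rose were the mitochondrial transcription factor Tfb2m (0.78, limma adjusted p = 0.0247), the nuclear receptor Esrra (0.67, limma adjusted p = 0.0491) and the coactivator Ppargc1a (0.56, limma adjusted p = 0.0438). Ppargc1a was dim, with 5.25, 5.46, 5.47, 5.56 and 5.89, near the lower quartile of all probe sets. Whether its values lie above background was not tested. Mef2d, the brightest that did not pass, had a slope of −0.54 (limma adjusted p = 0.0671).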

How the data were processed

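Values are the authors' deposited log2 signals, which were made with RMA per the submitters' processing notes (version not given in the sources used here). RMA corrects background, sets all arrays to the same quantiles and summarises probes by median polish, so shifts shared by all genes are removed and 40.5% of probe sets hold ties between arrays. Array medians lay between 6.83 and 6.92. Arrays were grouped by the colon share in their labels. The 64 control probe sets were left out, with no filter on signal. Symbols came from the platform annotation, and all 84 matched RefSeq (GRCm38.p6). Slopes were fitted with limma 3.58.1 (R 4.3.3, eBayes, 3 residual degrees of freedom, 2-sided) and tested on simulated data. Promoter letters and permutations used Python 3.11.15. With 1 array per mix, p-values measure technical spread and any bend away from a straight line. Members, lists and pairs were chosen with earlier results of these data known. Genes named with values are the tissue isoforms and partners, the genes that passed and, in each complex, the brightest and those with extreme slopes, others being examples. From each other list they are the 3 passing genes with the largest slopes and the brightest not passing. Alternatives were median centring, a minimum mean log2 signal of 7, linear intensities, a variance trend, means over probe sets and each array left out.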

Additional observations from a re-analysis of the deposited data

How the results depend on the processing

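Cox6a2, Cox8b, Cox7a1, Ndufa6 and Cox5a passed under median centring, without dim probe sets, on linear intensities and with a variance trend. With means over probe sets Cox6a2, Cox8b, Cox7a1 and Ndufa6 passed too, but each has 1 probe set, so their slopes could not change. Cox5a, which has more than 1, did not pass there (adjusted p = 0.231). Median centring gave 5 genes that rose in place of 2, and 3148 probe sets that rose and 2325 that fell in place of 1953 and 2456. Leaving out dim probe sets, or averaging probe sets, gave 5 that fell in place of 3, by Ndufa10 and Ndufa4 and by Ndufa4 and Ndufs7. Leaving out dim probe sets changed no slope, and averaging changed none of a gene with 1 probe set, such as Ndufa4. With an array left out, 0 to 1 of the genes rose and 1 to 2 fell, and among all probe sets 168 to 1306 rose and 829 to 1692 fell, each with 2 residual degrees of freedom in place of 3. At an unadjusted limma p under 0.05, 8 to 20 of the genes were past in these fits. Of the 84 slopes, 13 turned sign after centring, 2 on linear intensities, 6 with means over probe sets and 0 to 13 with an array left out, none of them a slope that passed. Examples of such turns were Ndufaf3 after centring (0.080) and on linear intensities (0.0048) and Uqcrq with means over probe sets (0.0079). With an array left out, named genes with slopes of both signs included Ndufaf3 (−0.12 to 0.26), Cox8c (−0.023 to 0.29) and Sdhb (−0.016 to 0.094). Atp5g3 (−0.035 to 0.14), Cox4i2 (−0.45 to 0.068) and Cox7a2 (−0.015 to 0.15) did so too. Further such genes were Ndufv1 (−0.036 to 0.16), Ndufs1 (−0.095 to 0.059) and Cox7a2l (−0.087 to 0.16). The same held for Ndufs4 (−0.078 to 0.12), Uqcr10 (−0.28 to 0.097) and Atp5g1 (−0.088 to 0.00019). The cause was not tested. All 3 heart and muscle pairs kept their direction with each array left out, where 4 arrays cannot reach an exact p of 0.05. No paired analysis was possible because each mix has 1 array and the labels give no replicate numbers. With 5 arrays the precision of all values is limited by their number.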
